A study of Homo sapiens with 6 samples.

Results

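The nuclear-encoded subunits of the respiratory chain were followed in cells of SW480, an established line from a human colorectal cancer, after depletion of the integrin subunit ITGB4. Members were the protein-coding rows of the expression table whose symbols carry the names of subunits of complex I (NDUFA, NDUFB, NDUFC, NDUFS and NDUFV with a number), complex II (SDHA to SDHD), complex III (UQCR), complex IV (COX4 to COX8) and ATP synthase, called complex V (ATP5). There were 90 such genes among 58735 in the table, 39 in complex I, 4 in complex II, 9 in complex III, 17 in complex IV and 21 in complex V. The rule itself uses names and no measured value.

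The 6 libraries came from SW480 cells labelled as wild type, transfected in 3 cases with a negative control siRNA and in 3 with an siRNA against ITGB4. The series calls the 3 libraries of a group biological replicates. Messenger RNA was captured on poly-T beads. Neither the siRNA sequence nor the time after transfection is given in the labels, and a second ITGB4 siRNA is not mentioned. In such bulk samples, fewer cells of a type and less RNA per cell cannot be told apart.

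The respiratory chain lies in the inner mitochondrial membrane. Complexes I and II feed electrons from NADH and succinate to ubiquinone, complex III passes them to cytochrome c, and complex IV passes them to oxygen. Complexes I, III and IV pump protons, and complex V uses the gradient to make ATP. Most of their subunits are encoded in the nucleus, translated in the cytosol and imported, while a few core subunits of complexes I, III, IV and V are encoded by mitochondrial DNA. In epithelial tumours the chain supplies ATP and also regenerates the oxidized cofactors that nucleotide and aspartate synthesis need.

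The libraries held 13715266 to 15496274 recovered reads. ITGB4 itself was at 74.3, 63.8 and 69.8 FPKM (fragments per kilobase of a gene's exons, scaled to the size of the library) with control siRNA and at 41.1, 38.1 and 37.9 with ITGB4 siRNA. Its groups did not overlap, and its log2 difference was -0.81 (95% interval -0.97 to -0.66, limma adjusted p = 0.0148), so a good part of the transcript remained in the depleted cells. The size was similar under every alternative run (-0.87 to -0.76), but the call was lost with the replicate block (limma adjusted p = 0.0564), without the filter on low values (0.0618), on replicates 2 and 3 alone (0.0797), without control replicate 3 (0.0996) and without ITGB4 siRNA replicate 1, 2 or 3 (0.0709, 0.137 and 0.0968). Of 10 markers of colorectal epithelium, 6 averaged at least 1 FPKM, led by KRT18, KRT8 and KRT19, while CEACAM5 was at 0 and KRT20 and CDX1 were near 0. The summed epithelial markers ranged from 1471 to 1649 FPKM with control siRNA and from 1523 to 1564 with ITGB4 siRNA. None of the 6 fibroblast, 4 endothelial, 5 leukocyte or 4 muscle markers averaged 1 FPKM, the highest being DES (muscle) at 0.943 and CD14 (leukocyte) at 0.745. The first principal component, with 27.8% of the variance, set replicate 1 of both groups apart from the other 4 libraries.

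No respiratory chain subunit changed detectably when ITGB4 was depleted. Of the 90 members, 77 averaged at least 1 FPKM and were tested, and limma called 0 of them at an adjusted p under 0.05, against 6 of all 12871 tested genes (0.0466%, of which 0.0233% higher and 0.0233% lower). The unadjusted p was under 0.05 in 3 members, all higher with ITGB4 siRNA, among them NDUFA8 and ATP5MG, which is 3.90% of the tested members against 5.83% of all tested genes. Limma-voom on the recovered reads called 0 members and gave 2 at an unadjusted p under 0.05, against 0.202% and 5.82% of all tested genes. The limma adjusted p was 0.817 for NDUFA8 and 0.833 for ATP5MG.

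The members' differences were centred on 0. Their log2 differences, ITGB4 siRNA minus control, ran from -0.16 (NDUFB5) to 0.22 (ATP5MG), with a median of 0.0016, and 39 lay above 0 and 38 below. Over all tested genes the median was -0.0034, with 6242 above 0 and 6629 below. The median size of a difference, whatever its sign, was 0.038 in members and 0.059 in all tested genes, and the median SD of log2 values within a group was 0.088 in members and 0.097 in all tested genes. In the tested protein-coding genes, the class of every member, the same medians were 0.052 and 0.088. The members were also the more abundant set, with a median of 22.7 FPKM against 6.24 in all tested genes, and the spread was not tested against that level.

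The precision allowed a bound on most members. In 66 of the 77 (85.7%) the 95% interval of the difference lay within 1.25-fold either way (0.32 on the log2 scale of FPKM + 1). The share was 67.8% of all tested genes and 78.5% of the tested protein-coding genes, the class of every member. On that scale the change of a gene at a few FPKM, such as ATP5S or NDUFA9, is understated, so for low members the interval does not bound the fold of FPKM itself. The other 11 were NDUFA5, NDUFB5, NDUFB8, NDUFS6, NDUFS7, NDUFS8, COX7B, ATP5F1D, ATP5MD, ATP5ME and ATP5MG, whose intervals reached past 1.25-fold in at least 1 direction. In 7 members the 2 groups of values were separate, 5 higher (among them NDUFA8, NDUFA9, SDHC and ATP5MG) and 2 lower (UQCR10 and ATP5MC2) with ITGB4 siRNA. That is 9.09% of members, against 11.1% of all tested genes (5.75% higher and 5.36% lower), a share near the background. For each of these 7 the exact two-sided permutation test returned p = 0.1, and no smaller p is possible with 3 against 3 libraries.

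**Figure D1:**
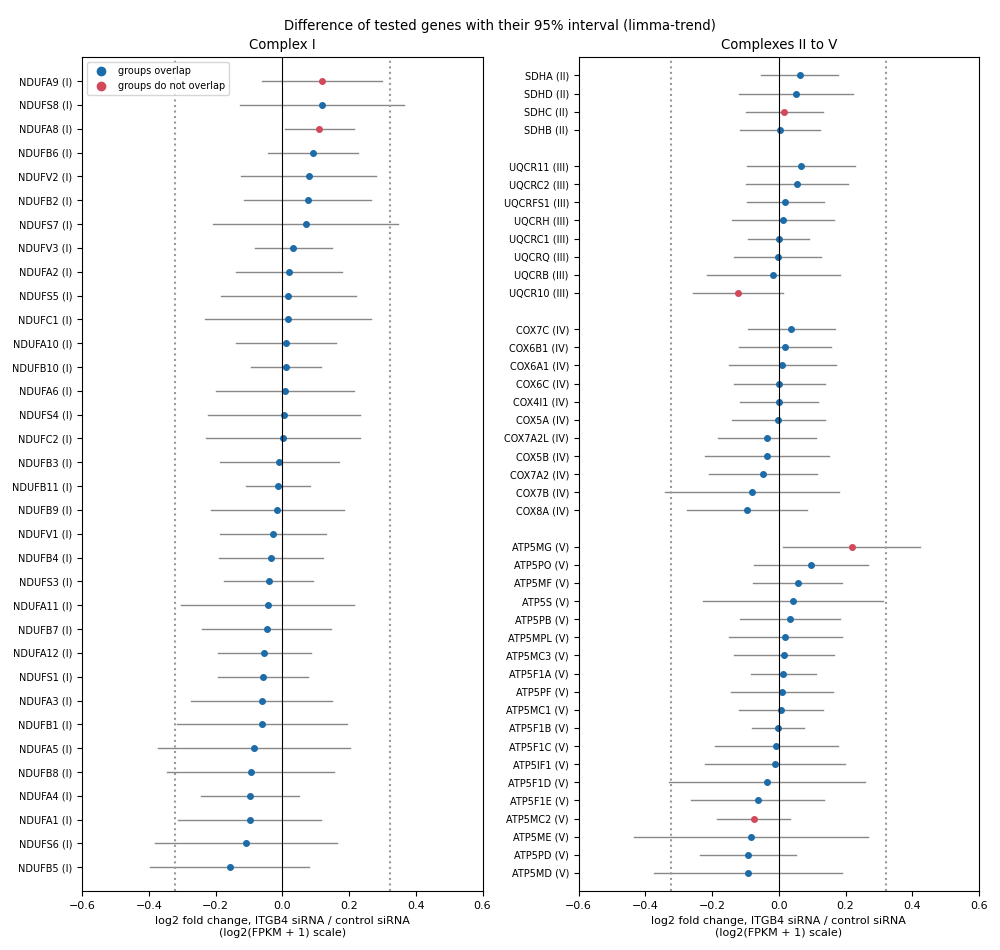
Log2 difference of FPKM + 1 (ITGB4 siRNA minus control siRNA, horizontal axis) with its 95% interval as a grey line for 76 of the tested members, complex I on the left and complexes II to V on the right, with dotted lines at 1.25-fold either way. Red points mark the 6 of these whose groups did not overlap, blue points the others, and the points lie on both sides of 0, from -0.16 to 0.22.

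The promoters of these genes are known for sites of nuclear respiratory factor 1 (NRF1), of the ETS-family factor GABP and of YY1, and the windows below show such letters in members whose values are described here. RefSeq promoter sequences (GRCh38.p14, 250 bases before to 50 after the start) were matched for 72 members by symbol, synonym or gene identifier. The letters searched on both strands were GCGCA, any base and GCGC for NRF1, CCGGAAG for ETS factors and AAGATGGCG for YY1, and no matches of different motifs overlapped in these promoters. Each window is written 5′ to 3′ on the gene's strand with a match in capitals. The matches of all 3 ETS windows and of UQCRC1 are on the opposite strand and read as the reverse complement of the letters given. The NDUFA8 window holds a further NRF1 match that overlaps the marked one and runs on into the lower-case letters after it.
NDUFA8 (complex I, NRF1, chr9:122159764-122159793, minus strand): gttgccggatGCGCATGCGCaggcgccgtg
SDHD (complex II, NRF1, chr11:112086753-112086782, plus strand): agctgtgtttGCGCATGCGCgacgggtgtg
UQCR10 (complex III, NRF1, chr22:29767351-29767380, plus strand): gtcggccccaGCGCAGGCGCggtggcgcga
UQCRC1 (complex III, NRF1, chr3:48609674-48609703, minus strand): gtacggtactGCGCCTGCGCcgcgaccgcc
COX8A (complex IV, ETS, chr11:63974592-63974621, plus strand): agctccagaaCTTCCGGccagcgcagccat
COX4I1 (complex IV, ETS, chr16:85799687-85799716, plus strand): gccttgctctCTTCCGGtcgcgggacaccg
ATP5MG (complex V, ETS, chr11:118401597-118401626, plus strand): gcagcgggtcCTTCCGGcgggtgacattca
NDUFA9 (complex I, YY1, chr12:4649114-4649143, plus strand): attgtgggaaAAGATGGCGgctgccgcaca
SDHB (complex II, YY1, chr1:17054003-17054032, minus strand): gtcaggagccAAGATGGCGgcggtggtcgc

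The NRF1 letters stood in 17 of the 72 member promoters (23.6%), against 6.28% of all 27305 RefSeq promoters and 12.7% of the 9041 promoters of tested genes. The ETS letters stood in 20 (27.8%, against 10.7% and 20.7%) and the YY1 letters in 8 (11.1%, against 1.85% and 4.29%). SDHA, the flavoprotein subunit of complex II, held the NRF1 letters 4 times. In complex IV, COX8C was the 1 of 14 promoters with the NRF1 letters, while 5 held the ETS letters. A match is a description of the letters and does not show that a factor binds there.

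In complex I, 35 of 39 members were tested, of which 17 had a log2 difference above 0 and 18 one below, and the median was -0.0096. NDUFA8 (ENSG00000119421, chromosome 9, 122144058 to 122159819, minus strand), an accessory subunit on the intermembrane space side, had the highest FPKM of the complex I genes. It was at 91.2, 91.2 and 88.9 FPKM with control siRNA and at 96.9, 102.3 and 94.2 with ITGB4 siRNA. The groups did not overlap, and the log2 difference was 0.11 (95% interval 0.01 to 0.22, limma adjusted p = 0.817). NDUFA9, an accessory subunit near the ubiquinone channel, was at 2.37, 2.49 and 2.66 FPKM against 2.71, 3.06 and 2.66, where the lowest ITGB4 siRNA value and the highest control value were all but equal. It is named outside the rule for named genes, after its values were seen.

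NDUFB5 and NDUFB6, accessory subunits of the membrane arm, had values on opposite sides of 0. NDUFB5 was at 7.32, 9.45 and 8.75 FPKM with control siRNA and at 6.86, 7.39 and 8.25 with ITGB4 siRNA (log2 difference -0.16, 95% interval -0.40 to 0.08, limma adjusted p = 0.985). NDUFB6 was at 18.7, 17.5 and 19.5 against 18.9, 20.4 and 20.2 (0.09, interval -0.04 to 0.23, limma adjusted p = 0.983). In both genes the groups overlapped. NDUFV2, an iron-sulfur subunit of the NADH-binding module, had the lowest FPKM of the complex I genes that were tested. It was at 1.75, 1.79 and 2.01 FPKM against 1.89, 2.20 and 1.94, on 70 to 91 reads a library. Another gene covers 28.4% of the NDUFV2 exon bases on the same strand. The pseudogene NDUFV2P1 averaged 2.23 FPKM against 1.93 for NDUFV2, and the part of either in the NDUFV2 level was not tested.

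Complex II, succinate dehydrogenase, is the 1 complex encoded entirely in the nucleus, and its 4 genes had differences of 0.00 to 0.06 on the log2 scale. SDHA (ENSG00000073578), the flavoprotein that oxidizes succinate, was at 26.4, 24.1 and 25.1 FPKM with control siRNA and at 26.7, 25.8 and 26.5 with ITGB4 siRNA. SDHB (ENSG00000117118), the iron-sulfur subunit, was at 26.4, 26.9 and 29.2 against 27.7, 27.5 and 27.5. Values of both groups overlapped for both genes, and the 95% intervals were -0.05 to 0.18 for SDHA and -0.12 to 0.12 for SDHB.

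The membrane anchors SDHC and SDHD bind ubiquinone. SDHC (ENSG00000143252) was at 5.31, 5.39 and 5.34 FPKM against 5.40, 5.43 and 5.42, and SDHD (ENSG00000204370) at 24.3, 28.6 and 28.1 against 26.6, 28.6 and 28.7. The SDHC groups did not overlap, yet the difference was 0.02 on the log2 scale (95% interval -0.10 to 0.13, limma adjusted p = 0.998). For SDHD the difference was 0.05 (interval -0.12 to 0.22). The median over the 4 genes was 0.034, with 4 of 4 above 0, and leaving out control replicate 1 gave -0.0042. That library had the lowest SDHD value, and its summed complex II level of 82.3 FPKM was the lowest of the 6 (the other 5 were at 85.0 to 88.1).

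In complex III, 8 of 9 members were tested, with a median of 0.0062 and 4 values on either side of 0. UQCRC1 (ENSG00000010256, chromosome 3, 48599002 to 48610976, minus strand), a core protein on the matrix side, had the highest FPKM of the complex III genes. It was at 77.9, 74.1 and 77.1 FPKM with control siRNA and at 75.4, 76.9 and 76.7 with ITGB4 siRNA, and the 95% interval of its log2 difference was -0.09 to 0.09. UQCR10 (ENSG00000184076, chromosome 22, 29767369 to 29770413, plus strand), a small subunit of the complex, was at 49.1, 46.0 and 49.0 against 41.1, 45.5 and 45.7. Its ITGB4 siRNA values were all below the control values by a narrow margin (45.7 against 46.0 at the nearest), and the log2 difference was -0.12 (interval -0.26 to 0.01, limma adjusted p = 0.915).

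The other complex III genes named by the rule had overlapping groups. UQCRC2, the second core protein, differed by 0.05 on the log2 scale (95% interval -0.10 to 0.21). UQCRFS1, the Rieske iron-sulfur protein that passes electrons towards cytochrome c1, differed by 0.02 (interval -0.10 to 0.13). UQCR11, a small subunit, differed by 0.07 (interval -0.10 to 0.23).

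In complex IV, cytochrome c oxidase, 11 of 17 members were tested, 4 above 0 and 7 below, and their median was -0.0019, which was above 0 when the values were rescaled to TPM (each library scaled to the same total). No gene of this complex had groups that did not overlap. COX8A (ENSG00000176340, chromosome 11, 63974607 to 63976543, plus strand) had the highest FPKM of the complex IV genes, at 216.8, 179.1 and 212.3 FPKM with control siRNA and 186.4, 195.2 and 185.2 with ITGB4 siRNA. Control replicate 2 was the lowest of the 6 libraries and the other control libraries were the highest, and the log2 difference was -0.10 (95% interval -0.28 to 0.08, limma adjusted p = 0.998). A gene model without a name of its own, AP000721.1, covers 34.5% of the COX8A exon bases on the same strand and was listed at 0 in all 6 libraries.

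Several complex IV subunits exist as paired genes, of which 1 is used in most tissues and the other in muscle, testis or lung. In SW480 cells the widely expressed gene was the higher of every pair. COX4I1, whose product is a subunit with a regulatory role, was at 34.7, 35.8 and 35.7 FPKM with control siRNA and 37.1, 35.6 and 33.6 with ITGB4 siRNA, while COX4I2 had 3 reads in control replicate 2 and 0 in the other libraries. COX6A1 was at 29.6, 32.4 and 29.8 FPKM against 29.7, 33.6 and 29.4, while COX6A2, the heart and skeletal muscle form, was at 0 in all 6. COX6B1 was at 117.1, 112.8 and 107.7 FPKM against 109.6, 110.001 and 122.5, while COX6B2, the testis form, had 22 to 36 reads a library. In all 3 widely expressed genes the groups overlapped, with 95% intervals that lay between -0.15 and 0.17 on the log2 scale.

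The small subunits of the COX7 and COX8 families followed the same order of levels. COX7A2 differed by -0.05 on the log2 scale (95% interval -0.21 to 0.11) and COX7A2L, a related protein that joins complexes III and IV, by -0.04 (interval -0.18 to 0.11). COX7A1, the muscle form, was at 0.134, 0.872 and 0.913 FPKM with control siRNA and 0.861, 0.260 and 0.192 with ITGB4 siRNA. These values rest on 2 to 14 reads a library and the groups overlapped. COX7B was at 13.9, 16.7 and 15.1 FPKM against 12.1, 15.6 and 15.6, with its lowest value in replicate 1 of each group, and COX7B2 was at 0 in all 6 libraries. COX7C differed by 0.04 (interval -0.09 to 0.17), and COX8C had 1 read in 1 library.

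NDUFA4 carries a complex I name and was counted in that complex here, but its protein is a subunit of complex IV. It was at 31.7, 31.2 and 31.0 FPKM with control siRNA and at 27.0, 29.1 and 31.6 with ITGB4 siRNA. The control libraries were close together, the ITGB4 siRNA libraries reached from below them into their range, and the log2 difference was -0.10 (95% interval -0.24 to 0.05, limma adjusted p = 0.985). Its relative NDUFA4L2, known as a target of hypoxia-inducible factor, had 8 to 13 reads a library.

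**Figure D2:**
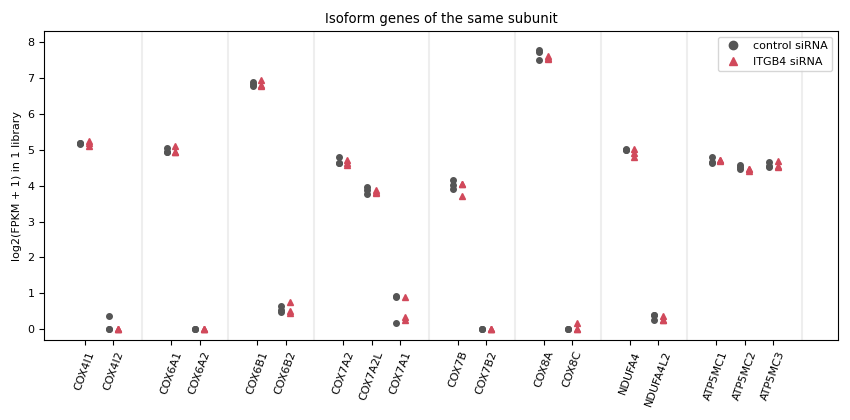
Log2 of FPKM + 1 of the isoform genes in each library, with grey circles for the 3 control siRNA and red triangles for the 3 ITGB4 siRNA libraries. In each complex IV pair the widely expressed gene lay far above its tissue-specific relative in all 6 libraries, as NDUFA4 lay above NDUFA4L2, whereas the 3 ATP5MC genes lay together.

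In complex V, 19 of 21 members were tested, and the median was 0.0063, with 10 values above 0 and 9 below. The tested genes include ATP5IF1, which encodes the inhibitor of the complex. ATP5F1B (ENSG00000110955, chromosome 12, 56638175 to 56646068, minus strand), the catalytic beta subunit, had the highest FPKM of all members. It was at 396.2, 396.1 and 400.8 with control siRNA and at 393.1, 401.9 and 395.8 with ITGB4 siRNA. The group means of 397.7 ± 2.69 and 397.0 ± 4.53 (SD, n = 3 each) differed by less than the SD of either group, and the 95% interval of the log2 difference was -0.08 to 0.07.

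ATP5MG (ENSG00000167283, chromosome 11, 118401154 to 118431496, plus strand), the g subunit of the membrane part, had the largest difference of the tested members. It was at 9.39, 10.99 and 12.18 FPKM with control siRNA and at 12.81, 12.66 and 12.70 with ITGB4 siRNA. The control libraries were spread out and the ITGB4 siRNA libraries sat together just above the highest of them, with means of 10.9 ± 1.40 and 12.7 ± 0.0769 (SD, n = 3 each). The log2 difference was 0.22 (95% interval 0.01 to 0.42, limma adjusted p = 0.833). Other genes cover 12.5% of its exon bases, and their part in the value was not tested.

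The c subunits, which form the rotating ring, are encoded by ATP5MC1, ATP5MC2 and ATP5MC3, which differ in their import signals and yield the same mature protein. ATP5MC1 was at 26.8, 23.9 and 24.4 FPKM against 25.4, 24.8 and 25.2. ATP5MC2 was at 22.7, 21.8 and 21.3 against 21.1, 20.2 and 21.0, and ATP5MC3 at 24.2, 22.1 and 22.4 against 22.1, 22.4 and 24.9. ATP5MC2 alone of these 3 had groups that did not overlap, with a log2 difference of -0.08 (95% interval -0.19 to 0.03, limma adjusted p = 0.981).

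Of the stalk subunits, ATP5PD (subunit d) differed by -0.09 on the log2 scale (95% interval -0.24 to 0.05) and ATP5PO (the oligomycin sensitivity-conferring protein) by 0.10 (interval -0.07 to 0.27), and the groups of both overlapped. ATP5S, the member just above the filter on low values, was at 1.49, 2.11 and 1.76 FPKM with control siRNA and 1.61, 1.98 and 2.001 with ITGB4 siRNA. UQCRHL, the member just below it, was at 1.02, 0.990 and 0.753 against 1.09, 0.811 and 0.825.

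**Figure D3:**
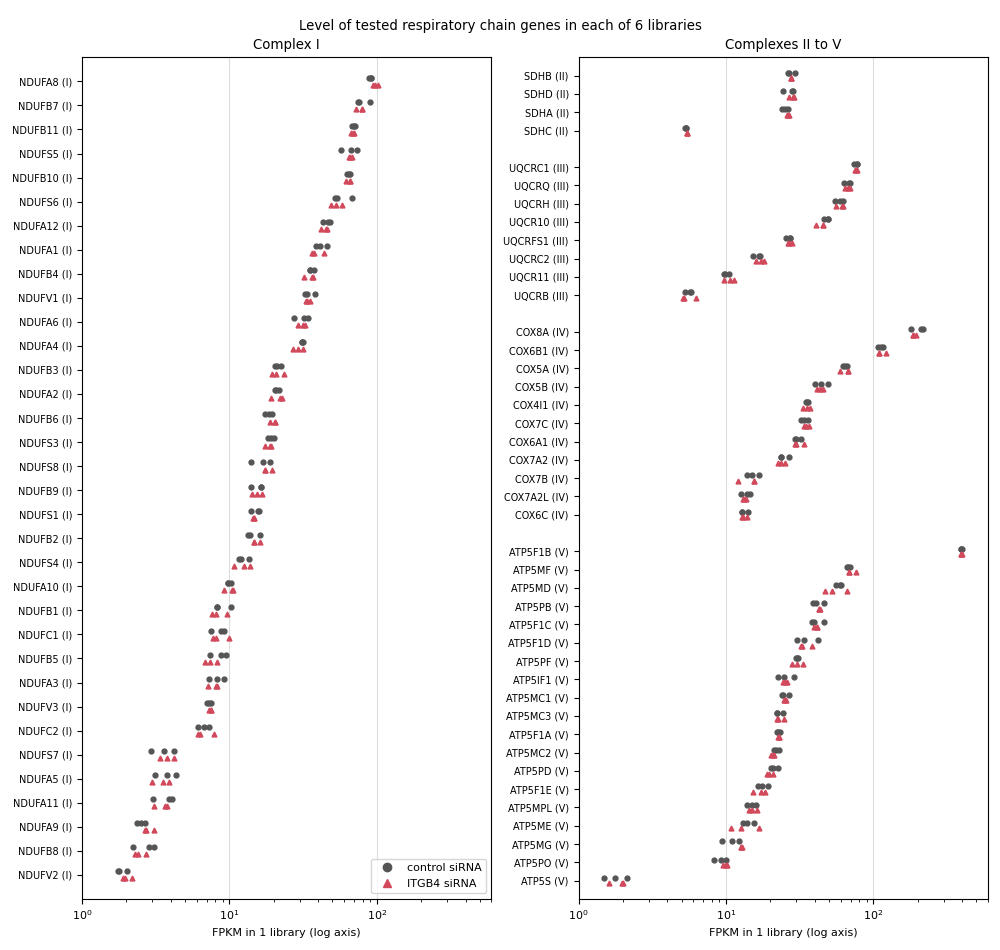
FPKM of 76 of the tested members in each library on a logarithmic axis, complex I on the left and complexes II to V on the right, with grey circles for control siRNA and red triangles for ITGB4 siRNA libraries. Means over the 6 libraries reached from 1.83 (ATP5S) to 397.3 (ATP5F1B), and the circles and triangles of most genes overlapped.

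Summed over their members, the complexes differed little between the groups. The complex I genes summed to 945.0, 872.1 and 870.7 FPKM with control siRNA and 875.7, 895.2 and 902.6 with ITGB4 siRNA, a difference of the means of -0.53%. Control replicate 1 stood above the other 5 libraries in complex I, and also in complex IV (613.2 FPKM, next 591.5 in control replicate 3). All members together summed to 2849.6 FPKM in that library, again the highest (next 2799.8 in ITGB4 siRNA replicate 3). In complexes III and V only ITGB4 siRNA replicate 3 was above control replicate 1, and in complex II control replicate 1 was the lowest. The difference was 2.65% in complex II, -0.70% in complex III, -2.46% in complex IV and -0.26% in complex V, and the values of the groups overlapped in each of the 5 complexes. All members together took 0.647%, 0.633% and 0.634% of the recovered reads with control siRNA and 0.631%, 0.637% and 0.652% with ITGB4 siRNA.

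**Figure D4:**
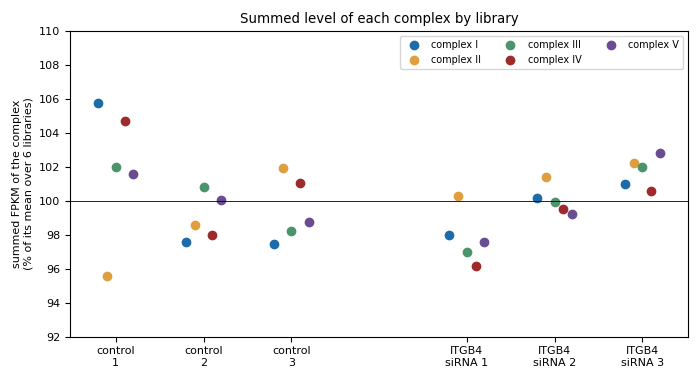
Summed FPKM of each complex in each library as a percentage of its mean over the 6 libraries, with 1 coloured point per complex and library and a vertical axis that does not start at 0. Control replicate 1 was the highest library in complexes I and IV and the lowest in complex II, and the points of the groups overlapped in every complex.

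Levels are comparable between genes only as far as the length used is right, and FPKM here divides by the merged exons of all transcripts of a gene. That length was 1.85 times the principal transcript in the median tested member and 1.41 times in the median tested gene with a principal transcript. ATP5F1A, the alpha subunit that pairs with ATP5F1B in equal number, was at 22.7 FPKM with a gene length of 10908 bases, against 397.3 FPKM and 2322 bases for ATP5F1B. On the same scale but per kilobase of the principal transcript, the levels were 42.7 for ATP5F1A and 503.3 for ATP5F1B. The principal transcript was taken as the longest one so tagged, 5818 bases for ATP5F1A and 1839 for ATP5F1B. ATP5F1A had 22173 reads and ATP5F1B 82638 over the 6 libraries, so the size of the gap depends on the length chosen. The members' order by the 2 lengths had a Spearman correlation of 0.811 across the 77 members, which are not independent replicates. By this length the highest gene was another one in every complex except complex IV, where COX8A was at 196.4 against 195 for COX4I1. In complexes I and II, NDUFA12 was at 129.6 against 94.4 for NDUFA8 and SDHA at 90.6 against 59.0 for SDHB. In complexes III and V, UQCRH was at 138.5 against 124.9 for UQCRC1 and ATP5MF at 518.1 against 503.3 for ATP5F1B. The principal transcript of ATP5MF has 305 bases and its gene length is 7.46 times that, so this order also depends on the transcript chosen. The length is the same in every library, but through the pseudocount and the filter on FPKM it also bears on the size of the log2 differences of low members and on which members were tested. With a pseudocount of 0.1 in place of 1, the difference of NDUFV2 was 0.11 in place of 0.08 and that of ATP5S 0.06 in place of 0.04.

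The 13 members below the filter were of several kinds. COX6A2 and COX7B2 were at 0 in all 6 libraries, and COX4I2, COX8C, COX7A1, COX6B2 and NDUFA4L2 are described above. The readthrough genes NDUFC2-KCTD14 and ATP5MF-PTCD1, which join a subunit gene to its neighbour, had at most 1 and 5 reads a library, and ATP5MGL, a copy of ATP5MG, had at most 2. NDUFA7 and NDUFA13, both subunits of complex I, had 6 to 22 and 29 to 43 reads a library. NDUFA13 was at 0.998, 0.997 and 1.04 FPKM with control siRNA and 0.853, 0.701 and 0.735 with ITGB4 siRNA. Its groups did not overlap, and in a fit without the filter its log2 difference was -0.19 (limma adjusted p = 0.898).

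Many members overlap other genes or have copies. Of the 90 members, 21 share over 20% of their exon bases with another gene, 8 of them on the same strand, among them NDUFA7 (33.5%, either strand) and NDUFA13 (21.0%). ATP5ME shares 61.6% with MYL5 on the opposite strand and NDUFS7 shares 49.1%, mostly with an antisense gene. Whether strand was used in counting is not given in the sources used here, so reads of such partners cannot be told apart. By name, 45 members have pseudogenes in the annotation, 159 in all, with 17 for COX6C. Levels of these members are uncertain for that reason, and the part of these copies in the comparison was not tested.

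The members' deviations between libraries moved with base composition. Across the 77 members, the deviation of a library from the mean of its group had a Spearman correlation with the GC content of the principal transcript of 0.522 in control replicate 1, -0.547 in control replicate 2 and -0.004 in control replicate 3. In the ITGB4 siRNA libraries it was 0.52, -0.12 and -0.42 for replicates 1, 2 and 3. These genes share libraries and are no independent replicates, and the same measure over all tested genes was 0.766, -0.746 and -0.203 with control siRNA and 0.553, -0.38 and -0.29 with ITGB4 siRNA. Replicate 1 had a positive value in both groups, and since the deviations of a group sum to 0, the other libraries of that group must on balance go the other way. The members' log2 difference between the groups had a Spearman correlation of -0.033 with GC content and of 0.228 with the length of the principal transcript. Over all tested genes these were 0.056 and -0.051. The members' deviations correlated with that length at -0.449, 0.248 and 0.317 in control replicates 1, 2 and 3. In the ITGB4 siRNA replicates the values were -0.094, 0.142 and 0.0023. The part of length in the differences was not tested.

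**Figure D5:**
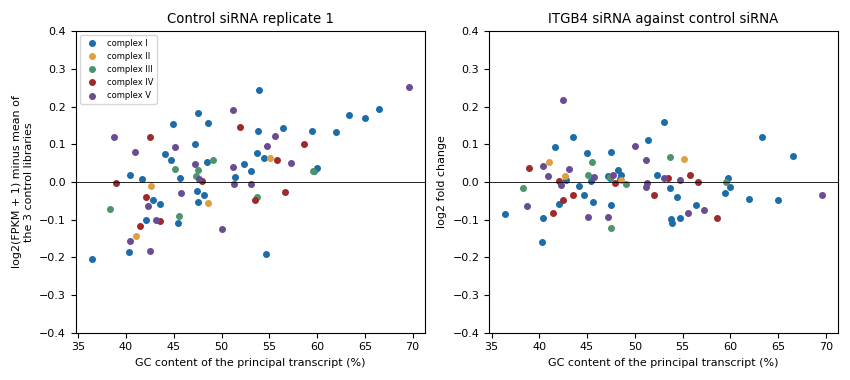
GC content of the principal transcript (percent, horizontal axis) of each tested member against its log2 deviation from the control mean in control replicate 1 (left) and against its log2 difference between the siRNAs (right), coloured by complex. The cloud tilts upwards on the left (Spearman 0.522) and is level on the right (-0.033).

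Other genes of the same pathway did not change detectably either. The 13 mitochondrially encoded subunits were all tested, limma called 0, and their median log2 difference was -0.0026, with 6 above 0 and 7 below. MT-ATP8 and MT-ND5, a complex V and a complex I subunit, had the smallest unadjusted p of these, with limma adjusted p = 0.998 for both. Mitochondrially encoded protein-coding genes took 4.35% to 5.06% of the recovered reads with control siRNA and 4.62% to 4.84% with ITGB4 siRNA. CYCS (cytochrome c), CYC1 (cytochrome c1) and NDUFAB1 (the acyl carrier of complex I), which the name rule leaves out, had log2 differences between -0.07 and 0.07.

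Of 14 assembly factors of complex I, 12 lay above 0 and 2 below (median 0.029), and limma called 0. NDUFAF6 and ECSIT had the smallest unadjusted p of that list, with limma adjusted p = 0.883 and 0.998. Among 6 complex III assembly factors, UQCC3 was at 8.29, 7.63 and 6.90 FPKM with control siRNA and 9.42, 8.93 and 9.05 with ITGB4 siRNA, and UQCC1 at 11.55, 11.51 and 12.27 against 12.93, 13.01 and 13.66. Both act in the making of cytochrome b, and in both the groups did not overlap, which was so in 5 of the 72 tested genes of all these other lists (6.94%) and in 11.1% of all tested genes. The log2 differences of UQCC3 and UQCC1 were 0.24 and 0.15 (limma adjusted p = 0.659 and 0.747). A gene on the opposite strand covers 29.2% of the UQCC3 exon bases and none covers those of UQCC1, and its part in the values was not tested. The median of the 6 was 0.0083, so the list as a whole lay near 0.

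For complex IV, 18 assembly factors were tested, with 11 above 0 and 7 below. COX15, an enzyme of haem A synthesis, was at 7.98, 9.21 and 7.84 FPKM against 9.51, 10.06 and 9.27, and COA3, which acts on the newly made COX1 protein, was at 19.09, 19.31 and 18.03 against 19.91, 20.50 and 20.68. In both the groups did not overlap, with log2 differences of 0.19 and 0.11 (limma adjusted p = 0.813 and 0.854). Other genes cover 25.6% of the COX15 exon bases, on the same strand, and 42.5% of those of COA3, on the opposite strand. Their part in the values was not tested. The 4 complex II assembly factors had a median of -0.12, with SDHAF4 and SDHAF2 both at an adjusted p of 0.998, and the 3 of ATP synthase, led by ATPAF2 and TMEM70, had a median of -0.0066. No member of these lists was called.

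Of 12 regulators of mitochondrial gene expression, 11 were tested, with 6 above 0 and 5 below. TFAM, which packages and transcribes mitochondrial DNA, was at 20.23, 23.50 and 22.70 FPKM with control siRNA and 17.87, 19.71 and 20.37 with ITGB4 siRNA (log2 difference -0.19, limma adjusted p = 0.817). GABPA, the DNA-binding subunit of the factor whose ETS letters are shown above, was at 9.04, 11.37 and 10.25 against 8.54, 8.84 and 9.33 (-0.18, limma adjusted p = 0.920). In both genes the lowest control value fell within the range of the ITGB4 siRNA values. Over all 72 tested genes of these lists, limma called 0. An unadjusted p under 0.05 was reached by 3 genes with values above 0 and 1 below, against 5.83% of all tested genes.

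For scale, other large families of abundant genes were read from the same fit. The 77 tested mitochondrial ribosomal protein genes had a median log2 difference of 0.0012 and the 80 tested cytosolic ribosomal protein genes one of -0.010, with 0 called in either. In these families 84.4% and 93.8% of the genes had a 95% interval within 1.25-fold either way, against 85.7% of the respiratory chain members. No test of a difference between these families was made.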

How the data were processed

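Gene expression was measured by RNA sequencing in 6 SW480 libraries, grouped by their titles. The authors deposited FPKM for 58735 genes and a mean FPKM per group. The submitters' processing notes name GRCh38, DESeq2 and edgeR without a role, and the aligner and counter are not given in the sources used here. Identifiers, coordinates and summed exon lengths equal those of GENCODE 29 for 58735 genes. FPKM times length gave whole reads for every value within 0.01 read. Log2(FPKM + 1) of the 12871 genes with a mean of at least 1 FPKM was fitted with limma 3.58.1 (limma-trend) in R 4.3.3, with no replicate term. A difference on this scale understates the change of low genes. Tests were two-sided, with Benjamini-Hochberg adjustment over all tested genes and calls at an adjusted p under 0.05. The test was checked on simulated data. Alternatives were limma-voom on the recovered reads, TPM, median-of-ratios rescaling, other pseudocounts and filters, a replicate block, and libraries left out. The limma p-values set each difference against the spread between these libraries, moderated over all tested genes. Named genes were, besides ITGB4, the highest member and up to 4 members with the smallest unadjusted p in each complex, isoform genes, SDH genes, readthrough genes, members next to the filter, and up to 2 genes per other list. Some other genes, such as NDUFA9, ATP5F1A, NDUFA12 and ATP5ME, are named outside this rule. The members, lists and tests were chosen with earlier results of these data known. RefSeq promoters were matched by name or identifier, and 18 members had none. The values of 1 tested member are not reported here; it is included in the counts and medians.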

Additional observations from a re-analysis of the deposited data

How the results depend on the processing

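Under 14 alternatives, 1 of them (replicates 2 and 3 of both groups) chosen after seeing the data, limma called 0 members. Over all genes, limma-voom called 26 (12 higher, 14 lower), and the fit without a filter, with the replicate block and on replicates 2 and 3 each called 0. Leaving out 1 library gave 0 to 7 calls (0 to 4 higher, 0 to 4 lower). With 1 library left out, the median log2 difference changed sign in every complex, ranging from -0.0276 to 0.0233 in complex I, -0.0042 to 0.054 in II, -0.00718 to 0.0207 in III, -0.0342 to 0.0113 in IV and -0.0201 to 0.0195 in V, and on replicates 2 and 3 it was 0.028 in complex I and 0.047 in complex V. The fall of ITGB4 kept its size (-0.87 to -0.76 with 1 library left out), and its call was lost as given beside its values.

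Members near 0 changed sign, none past the threshold. With TPM, limma-voom and median-of-ratios rescaling, UQCRC1 was at 0.00467, 0.00647 and 0.000536 and COX4I1 at 0.00459, 0.00498 and 0.000496, and with the first 2 ATP5F1B was at 0.00212 and 0.00381. On replicates 2 and 3, UQCRC1 was at 0.0227, ATP5F1B at 0.00166, COX7A2 at 0.0169, SDHB at -0.0281 and UQCR11 at -0.0054. With 1 library left out, values ranged from -0.021 to 0.014 for UQCRC1, -0.0117 to 0.00432 for ATP5F1B, -0.139 to 0.0333 for COX7B, -0.0245 to 0.0537 for ATP5MC1, -0.0496 to 0.0518 for COX6A1, -0.00987 to 0.0399 for UQCRFS1, -0.0342 to 0.0466 for COX6B1, -0.0326 to 0.0368 for COX4I1, -0.0356 to 0.0548 for ATP5MC3, -0.0866 to 0.0124 for COX7A2, -0.0237 to 0.0478 for SDHB, -0.0366 to 0.125 for ATP5S, -0.0195 to 0.0941 for SDHD and -0.0868 to 0.00901 for COX7A2L. The cause was not tested. The titles give replicate numbers without stating that they pair libraries, so the numbers were not taken as pairs. Same-numbered libraries had deviations correlated at 0.173, 0.102 and -0.01 over all tested genes and at 0.324, 0.287 and -0.278 over members. Libraries of unlike number ranged from -0.174 to 0.0862 over all tested genes and from -0.464 to 0.231 over members. Whether the numbers mark pairs was not tested. Members with few reads a library (66 to 93 for NDUFB8) are limited by counting error as well.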
